A study of Mus musculus with 12 samples.

Results

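The cells described are mouse mammary fibroblasts that carried high levels of Pi16 and Dpp4 and little of the interferon-induced genes Ifit1, Ifit3 and Isg15. Of 58620 cell barcodes in 12 single-cell libraries, 46257 passed the cell filters (at least 500 genes and 1000 UMIs, at most 5% mitochondrial UMIs). A UMI is 1 counted mRNA molecule. Of these cells, 33709 were fibroblasts, with at least 20 UMIs of Col1a1, Col1a2 and Col3a1 together and none of Ptprc, Pecam1 or Epcam, which mark immune, endothelial and epithelial cells. Members needed at least 20 UMIs of Pi16 and at least 2 of Dpp4, fewer than 10 of Fabp4, fewer than 2 of Cilp, and no joint detection of Pgr and Greb1. They also needed fewer than 5 UMIs of Ifit1, Ifit3 and Isg15 together and fewer than 5 of the keratinocyte-related genes Krtdap, Dmkn and Sbsn together. This left 2742 members, 8.13% of the fibroblasts. These measured values chose the members, so the genes of the rule are described here without a test.

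Pi16 encodes a secreted peptidase inhibitor and Dpp4 the cell surface peptidase CD26. Fibroblasts that carry both are found around vessels and in the connective tissue septa of many organs and have been called universal fibroblasts, since they are placed at the start of lineages that lead to specialised fibroblasts and to preadipocytes. In the mammary gland, fibroblasts lie beside the ducts and in the stroma of the fat pad, supply matrix and growth factors, and carry the estrogen receptor ERα in a part of the cells. Interferons act on a shared programme of antiviral and antigen presentation genes, the interferon-stimulated genes.

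All 12 groups were 4th mammary glands of female C57BL/6J mice aged 43 weeks, with 1 library per group and with the number of animals behind a library not stated. The Intact group kept its ovaries. The other 11 had received 4-vinylcyclohexene diepoxide (VCD), which depletes ovarian follicles and models menopause, at 160 mg/kg daily for 15 days. Of these, 9 formed a full layout of hormone by diet. The hormone was sesame oil vehicle, estradiol (E2, 1 µg per animal and day) or E2 with progesterone (P4, 1 mg per animal and day), given for the last 1 week. The diet held no PBDEs, a low dose over 20 weeks, or a high dose over the final 1 week, so that dose and duration cannot be told apart. PBDEs are brominated flame retardants, here a mixture of PBDE-47, PBDE-100 and PBDE-153. Per kg and day, the low diet gave 0.05, 0.0028 and 0.0063 mg and the high diet 1, 0.056 and 0.126 mg. Groups without PBDEs ate matched food with DMSO. The libraries are named VCD_Vehicle, VCD_E2 and VCD_E2_P4 without PBDEs, VCD_Low_PBDE, VCD_Low_E2 and VCD_Low_E2_P4 at the low dose, and VCD_High_PBDE, VCD_High_PBDE_E2 and VCD_High_PBDE_E2_P4 at the high dose. VCD_E2_ICI received E2 and a single 5 mg dose of ICI, an antagonist that blocks estrogen receptors. VCD_Vehicle_NormEnv was a vehicle group in a normal environment, where PBDEs from plastic cages were possible. Large cells, mature adipocytes among them, were kept out of the suspensions. With 1 library per group, tests compared libraries of the layout, and p-values measure the spread between libraries that the fit described below leaves over.

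Over the 12 libraries the members were sequenced to a range of depths like that of the other fibroblasts. Their median UMI count per library lay between 14449 and 20146.5, against 14504 to 22731 for fibroblasts outside the rule, and their median number of genes between 3576 and 4201. Within libraries the order differed, with 18157 in members against 14717 in VCD_Vehicle but 20146.5 against 22731 in VCD_E2_P4. The limits of the rule are UMI counts not scaled to depth, and the part of depth in the shares they removed was not tested. The deposited libraries held 2497 to 10006 barcodes. Pairs of libraries shared a median of 6 barcodes and at most 185, and over all 66 pairs only 2 shared barcodes were members in both. Intact, VCD_Vehicle, VCD_E2, VCD_E2_P4 and VCD_Low_PBDE shared 95 to 185 in pairs, and VCD_Low_E2 and VCD_Low_E2_P4 shared 84. The names of the deposited files end in 1 of 2 suffixes, whose meaning is not given. The first was carried by Intact, VCD_Vehicle, VCD_E2, VCD_E2_P4 and VCD_Low_PBDE and the second by the other 7. All libraries of the layout without PBDEs therefore shared one suffix and all with the high dose the other.

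The label was checked against Anxa3, an annexin, and Sema3c, a secreted semaphorin, which the rule did not use but which come from the same cells. Anxa3 was at 1452 to 1937 CPM (UMIs of the gene scaled to 1000000 UMIs summed over the members of a library). Fibroblasts with fewer than 5 UMIs of Pi16 and none of Dpp4, called Pi16-low below and numbering 12817, had 65.8 to 148 CPM of Anxa3. For Sema3c the members had 753 to 1159 CPM and the Pi16-low cells 12.3 to 37.8 CPM. After each cell was thinned to 5000 UMIs, which left out 40 of 2742 members, 1281 of 12817 Pi16-low cells and 1692 of 4826 immune cells, Anxa3 was found in 99.3% of 2702 members, in 28.1% of Pi16-low cells and in 16.2% of 3134 immune cells. Sema3c was found in 95.1%, 7.95% and 3.16%. Immune cells stand here as a rough guide to the level that free RNA gives. They held a UMI of Ptprc and fewer than 5 of Col1a1, Col1a2 and Col3a1 together, which leaves out cells with much fibroblast RNA. Whether immune cells express Anxa3 or Sema3c themselves was not tested. The median depth of these immune cells was 5609 to 7419 UMIs per library before thinning. In all 12 libraries both genes were therefore higher in members than in Pi16-low cells.

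Most defining genes of other cell types were at or near 0, but UMIs of Cd52, Tyrobp and Krtdap were found in all 12 libraries. Over all members there were 136 UMIs of Cd52 and 154 of Tyrobp (leukocytes), 205 of Krtdap (keratinocytes), which the rule limits per cell, 4 UMIs of Cdh5 and 7 of Cldn5 (endothelium), 38 of Krt8 and 39 of Krt18 (luminal epithelium), 20 of Rgs5 and 39 of Cspg4 (pericytes), 4 of Sox10 (Schwann cells) and 1 of Plin1 (adipocytes). Adipoq and Cidec (adipocytes) and Msln, Upk3b and Upk1b (mesothelium) had none. Of the members, 159 (5.80%) held a UMI of Krt14, Cd52 or Cspg4, markers of basal epithelium, leukocytes and pericytes. Cells just inside and just outside the Pi16 limit resembled each other. The 209 members with 20 to 24 UMIs of Pi16 had 500.4 CPM of Dpp4, 1235 of Anxa3 and 706 of Sema3c, and the 265 cells with 15 to 19 UMIs that met all other limits had 523, 1102 and 742 CPM.

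Members were found in every library, but in unequal shares. The share of fibroblasts was 9.71% in VCD_Vehicle, 12.6% in VCD_Low_PBDE and 10.1% in VCD_High_PBDE. With E2 it was 1.54% without PBDEs (38 cells, exact 95% interval 1.09% to 2.10%), 3.68% with the low and 8.60% with the high dose. With E2 and P4 it was 5.86%, 5.30% and 10.9% in the same order. VCD_E2_ICI had 9.53%, Intact 7.66%, and VCD_Vehicle_NormEnv the most, at 14.6% (13.3% to 15.9%). The intervals cover counting error only. The lowest 4 shares all came from libraries with E2, while the libraries with E2 and the high dose lay nearer to those without hormone.

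**Figure D1:**
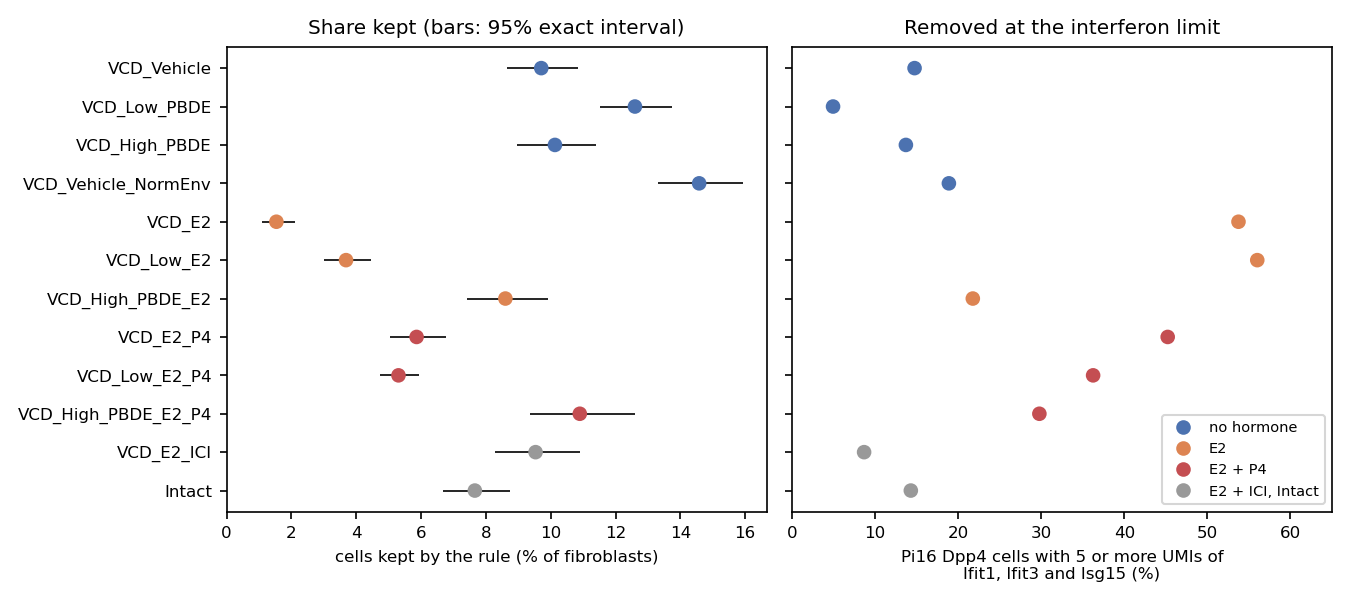
Left, share of fibroblasts in percent that met the whole rule, and right, percent of Pi16 Dpp4 positive fibroblasts past the interferon limit, by library (colours give the hormone: blue none, orange E2, red E2 with P4, grey E2 with ICI and Intact, error bars at left the exact 95% binomial interval). At left VCD_E2 is lowest at 1.54% and VCD_Vehicle_NormEnv highest at 14.6%, and at right the 6 libraries with E2 and no ICI are highest, at 21.8% to 56.0%.

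Much of this spread came from the limits that follow Pi16 and Dpp4. Of 11101 fibroblasts past the Pi16 and Dpp4 limits, 8359 failed at least 1 further limit, most often the keratinocyte-related one (6456 cells, 43.7% to 66.9% per library) and the interferon one (2961 cells). The interferon limit removed 53.7%, 56.0% and 21.8% of these cells with E2 (no, low and high PBDE), and 45.2%, 36.2% and 29.8% with E2 and P4. It removed 14.8%, 4.94% and 13.7% without hormone, 8.68% in VCD_E2_ICI, 14.3% in Intact and 18.9% in VCD_Vehicle_NormEnv. All 6 libraries with E2 and no ICI thus lost a larger share of Pi16 Dpp4 cells to this limit than any of the other 6. Cilp, a matrix protein gene, removed 29.8% in VCD_E2 and 28.3% in VCD_Low_E2 against 2.44% to 4.31% in the 3 libraries without hormone. It removed 13.9% in VCD_E2_P4, 11.6% in VCD_Low_E2_P4, 10.9% in Intact, 5.96% in VCD_High_PBDE_E2_P4 and 4.26% in VCD_High_PBDE_E2, the last of which lay within the range without hormone. The joint limit on Pgr and Greb1, both classical estrogen receptor targets, removed from 0.310% in VCD_E2_ICI to 18.3% in VCD_Low_E2. Without the interferon limit the shares ran from 3.80% in VCD_E2 to 17.7% in VCD_Vehicle_NormEnv, and with a rule scaled to cells thinned to 5000 UMIs from 2.76% to 17.0% in the same libraries. These shares were not tested, since the rule itself reads genes that move with the hormone.

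Against the Pi16-low fibroblasts, the members stood furthest apart, outside the genes of the rule, in Smpd3, Aldh1a3 and Akr1c18 on the high side and in Cxcl14 and Mgp on the low side. This is a description, since the same cells were chosen by Pi16 and Dpp4. Of 3037 genes with at least 50 CPM in either population, 171 were more than 1 log2 unit higher in members in all 12 libraries and 123 more than 1 lower. The median log2 ratio over these genes was -0.03. Smpd3, which encodes neutral sphingomyelinase 2, was at 378 to 1102 CPM in members and 2.30 to 9.35 CPM in Pi16-low cells, a median log2 ratio of 6.73. Akr1c18, a 20α-hydroxysteroid dehydrogenase that inactivates progesterone, was at 197 to 488 against 1.77 to 6.74 CPM. Aldh1a3, which makes retinoic acid, was at 216 to 339.8 against 1.81 to 5.49 CPM. For all 3 enzymes the lowest member library was far above the highest Pi16-low library.

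Nov, a matricellular protein (CCN3), had a median log2 ratio of 4.90, Myoc (myocilin) 5.04, and Cd55, a complement regulator, 3.80. Il13ra1, a receptor chain for interleukin 13, had 4.57 and the cytokine gene Il18 3.86. Mrgprg, a receptor gene of the Mas-related family, had 5.53 but ranged from 15.7 to 380.1 CPM over the members of the 12 libraries. At the other end stood Fabp4, a rule gene, with Cxcl14 at -6.38, the calcification inhibitor Mgp at -5.70, Sparcl1 at -5.09 and the basement membrane collagen Col15a1 at -5.00. Col15a1 was at 4.42 to 42.0 CPM in members and 496 to 1081 CPM in Pi16-low cells.

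**Figure D2:**
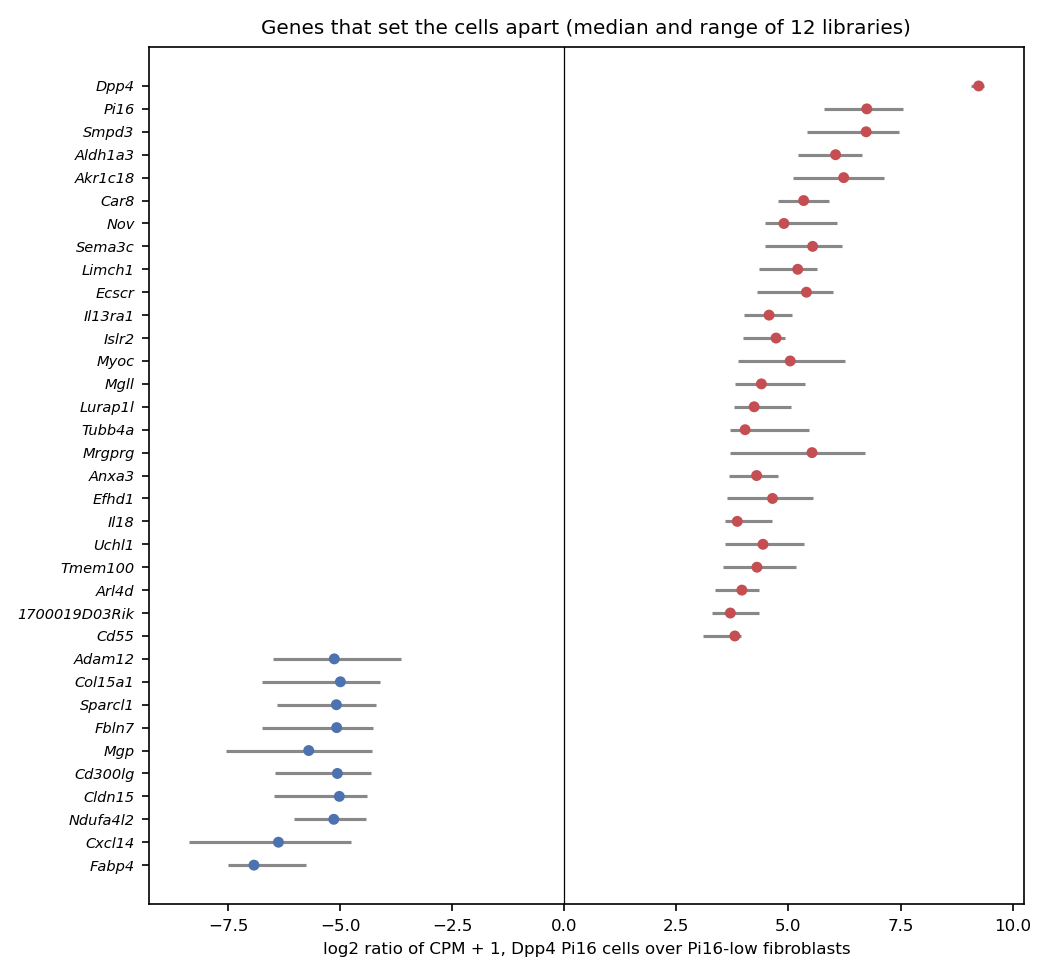
Log2 ratio of CPM + 1 in members to that in Pi16-low fibroblasts for the genes with the highest and the lowest ratios, where points are medians and lines the range over 12 libraries. Genes above 0 are higher in members, and Smpd3 has a median of 6.73 while Cxcl14 has -6.38.

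By gene group, 27 of 28 universal fibroblast markers were higher in members in all 12 libraries, the exception being Tppp3, which was lower. Over all 3037 genes, 26.4% were higher and 25.8% lower in all 12. Those genes had at least 50 CPM in either population, while the lists also hold genes below that level. Of 13 markers of adipogenic Dpp4-negative fibroblasts, 10 were lower and 1, Gpc3, higher. Lipoprotein lipase (Lpl) was at 200.7 to 393 CPM in members against 1993 to 3164 CPM. Of 12 fibrillar and fibril-associated collagens, 6 were lower and 1, Col14a1, higher (566 to 1213 against 70.1 to 175 CPM). Basement membrane genes split into 4 higher (Col4a5, Nid1, Lama4 and Lamc1) and 8 lower of 16, and chemokines and cytokines into 8 higher and 9 lower of 26. Complement genes were 6 higher and 2 lower of 18, among them C3 at 2303 to 4474 against 418 to 1077 CPM. Interferon-stimulated genes outside the rule were 10 higher, among them Irf7 and Usp18, and 3 lower (Ifi27, Iigp1 and Rtp4) of 43. Their median log2 ratio was 0.04. Usp18 was at 28.4 to 45.7 against 9.06 to 18.1 CPM. Members are thus low in Ifit1, Ifit3 and Isg15 by the rule, but were not low in this list against Pi16-low cells. Wnt signalling genes were 11 higher and 4 lower of 28, with the ligand Wnt2 at 145 to 281 against 24.9 to 94.4 CPM. Among growth factor genes, Fgf2 was at 57.4 to 124 against 6.49 to 10.3 CPM and Fgf18 at 32.4 to 58.0 against 2.10 to 6.59 CPM. Cxcl12, the ligand that DPP4 can cleave, went the other way, with 101 to 242 against 373 to 792 CPM.

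Of the steroid receptors, that for estrogen (Esr1) was higher in members in all 12 libraries. It was at 67.1 to 101 CPM in members and 19.9 to 55.6 CPM in Pi16-low cells. At 5000 UMIs it was found in 31.6% of members, 14.8% of Pi16-low cells and 1.98% of immune cells, and at full depth in 67.5% of members. The glucocorticoid receptor gene Nr3c1 was found at nearly equal shares in members (49.6%) and Pi16-low cells (45.9%). It was found in 58.4% of immune cells, which are not taken as a free RNA level for this gene. Pgr, the progesterone receptor gene, was found in 6.03% of members against 0.42% of Pi16-low and 0.13% of immune cells, although the rule left out cells with both Pgr and Greb1. Esr1 was not called for E2 in the test given next (log2 fold 0.07 ± 0.09 (SE), adjusted p = 0.72).

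By the median over libraries, the genes that varied most among members within a library were Hbb-bs, Ctla2a, Cxcl10, Mrgprg and Ccl2. Genes entered by a mean of at least 0.5 UMI per thinned cell over all 12 libraries. A gene high in few libraries could therefore enter, and Hbb-bs, Ctla2a and Mrgprg differ widely in level between libraries, as given below. In cells thinned to 5000 UMIs, the excess of the squared coefficient of variation over the Poisson level had a median of 0.116 over 1375 genes. The median over libraries was 62.3 for Hbb-bs (β-globin, -0.94 to 357) and 16.0 for Ctla2a (3.90 to 33.6). For Cxcl10 it was 14.7 (6.07 to 29.5), for Mrgprg 11.1 (2.01 to 29.7) and for Ccl2 10.3 (4.92 to 21.8). Hspa1b and Hspa1a, near-identical genes of HSP70 between which reads can be split, had 6.69 and 6.30, and Cxcl1, Apoe and Ccl7 had 6.14, 6.09 and 4.84. The tenth of cells with the most UMIs of a gene held a median over libraries of 87.9% of the UMIs of Ccl2, 93.7% of Cxcl10 and 97.1% of Mrgprg. Among the 190 pairs of the 20 most variable genes, the median correlation across cells was -0.009. It was highest for Ccl2 with Ccl7 (median r over libraries 0.46, 0.22 to 0.64) and for Hspa1b with Hspa1a (0.46, 0.35 to 0.57), followed by Ccl2 with Cxcl1 (0.35, 0.24 to 0.47). These cells share a library and the counts are sparse, so the values are descriptions.

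The question of the hormone treatments was what E2 changes in these fibroblasts after loss of the follicles. Counts were summed over the members of each library and the 9 libraries of the layout were fitted with hormone and PBDE level as additive terms in edgeR. The E2 effect was the mean of the libraries with E2 and with E2 and P4 against those with neither (6 against 3 libraries, 4 residual degrees of freedom). With a single library per combination, the residual is the departure from additive effects. Any interaction of hormone and PBDE level is therefore part of the error, and it was not tested. At an adjusted p below 0.05, 516 of 10657 genes were called (4.84%), 276 higher (2.59%) and 240 lower (2.25%) with E2. The 6 libraries with E2 all lay above or all below the 3 without for 825 genes (7.74%), and for 338 of the 516 called genes (65.5%). Among the called genes, 26 of 41 tested interferon-stimulated genes, 6 of 14 basement membrane genes and 5 of 23 chemokines and cytokines rose, while 6 of 26 TGF-β and BMP signalling genes and 6 of 30 immediate early and heat shock genes fell. For E2 without P4 against no hormone (3 against 3 libraries), 144 genes were called, 133 of them among the 516, and of the list genes just counted 9 of the 26, 0 of the 6 and 4 of the 5 that rose and 2 of the 6 and 1 of the 6 that fell. The values below give the libraries in the order no, low and high PBDE.

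Irf7, the transcription factor that amplifies type I interferon, was at 67.6, 36.6 and 50.8 CPM without hormone, 193, 140 and 186 CPM with E2, and 297, 288 and 282 CPM with E2 and P4. All libraries with E2 lay above all without, at a log2 fold of 2.14 ± 0.12 (SE, adjusted p = 6.81e-06). On GRCm38 (mm10) the gene lies at chr7:141263183-141266499, Ggt5 at chr10:75589327-75617200 and Gpx3 at chr11:54902854-54910387. Ggt5, an extracellular glutamyltransferase that acts on leukotriene C4, was at 26.8, 13.9 and 20.7 CPM without hormone, 119, 56.1 and 81.7 CPM with E2 and 63.2, 67.3 and 80.5 CPM with E2 and P4. Again the groups did not overlap (1.92 ± 0.16, adjusted p = 6.05e-05). Gpx3, the secreted glutathione peroxidase, was at 1010, 1069 and 1602 CPM without hormone, 2162, 2040 and 2752 with E2 and 3638, 3438 and 4747 with E2 and P4. It rose by 1.31 ± 0.09 (adjusted p = 1.77e-05), with a further step in each library with P4.

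Ctla2a, an inhibitor of cysteine proteases, had the largest rise of the named genes outside haemoglobin. It was at 8.62, 7.13 and 4.14 CPM without hormone, 42.0, 50.4 and 15.7 CPM with E2, and 714, 509.7 and 647 CPM with E2 and P4. The pooled E2 effect of 4.44 ± 0.30 (adjusted p = 1.77e-05) thus joined 2 levels that differed widely, and for E2 alone against no hormone it was 2.30 (adjusted p = 0.0102, edgeR). Other genes that rose were Ccdc80, a secreted matrix protein (1.25 ± 0.09), Lpar4, a receptor for lysophosphatidic acid (1.28 ± 0.20), and Fxyd5, a regulator of the sodium pump (1.24 ± 0.12). Their libraries with and without E2 did not overlap either, with Lpar4 at 18.8 to 31.5 CPM without hormone and 36.4 to 92.4 CPM with E2.

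The 4 globin genes Hba-a1, Hba-a2, Hbb-bs and Hbb-bt, which red blood cell precursors express, were also called, with log2 folds of 4.47 to 4.87. Hbb-bs was at 4.98, 9.26 and 14.4 CPM without hormone, 29.4, 1526 and 277 CPM with E2 and 208, 17.6 and 26.3 CPM with E2 and P4, and it was found in only 6.59% of thinned members. The vehicle library VCD_Vehicle_NormEnv, outside the fit, had 360.4 CPM. The call of Hbb-bs was lost when any of 6 of the 9 libraries was left out, those of Hba-a1 and Hba-a2 with any of 5 and that of Hbb-bt with any of 2. Over all settings the log2 fold ran from 1.78 to 6.37 for Hba-a1, 1.65 to 6.53 for Hba-a2, 2.07 to 5.90 for Hbb-bs and 1.00 to 6.60 for Hbb-bt. Hba-a1 and Hba-a2 are near-identical copies, between which reads can be split.

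Of the genes that fell, Itgb7 (integrin β7) was at 62.1, 105 and 97.8 CPM without hormone, 44.8, 33.8 and 41.4 CPM with E2 and 33.1, 29.8 and 34.4 CPM with E2 and P4, a log2 fold of -1.34 ± 0.15 (adjusted p = 0.000625). Bambi, a decoy receptor of TGF-β and BMP signalling, was at 36.4, 42.9 and 51.4 CPM without hormone, 14, 22.3 and 23.4 CPM with E2 and 16.1, 19.3 and 17.7 CPM with both hormones (-1.19 ± 0.11, adjusted p = 0.000114). Il33, an alarmin cytokine of universal fibroblasts, was at 249, 312 and 317 CPM without hormone, 122, 144 and 226 CPM with E2 and 124, 104 and 98.9 CPM with both (-1.13 ± 0.15, adjusted p = 0.00149). For these 3 genes every library without hormone was above every library with E2.

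Bmp7, a secreted BMP ligand, was at 53.6, 50.4 and 67.7 CPM without hormone, 12.6, 21.3 and 47.0 CPM with E2 and 28.9, 23.7 and 26.3 CPM with both (-1.04 ± 0.17, adjusted p = 0.00527). Enpp2, the lysophosphatidic acid producing enzyme autotaxin, fell by 1.34, Daglb, a diacylglycerol lipase, by 1.14, the cAMP-responsive factor Crem by 1.09, the ubiquitin protease Usp2 by 1.09, the glucose transporter gene Slc2a1 by 1.11 and the predicted gene Gm12840 by 1.22. Mrgprg had the largest fall, with 129, 380.1 and 238 CPM without hormone, 16.8, 71.2 and 46.7 CPM with E2 and 66.5, 15.7 and 18.4 CPM with both (-2.60 ± 0.43, adjusted p = 0.00533). Its call was lost without VCD_Low_PBDE, its highest library, with the file name suffix as a term and for E2 alone against no hormone (adjusted p = 0.0555). Bmp7 (0.0531) and Daglb (0.0681) also missed the threshold for E2 alone, and Slc2a1 lost its call on leaving out any of 5 libraries. Enpp2 lost its call in 5 of 13 alternatives and without VCD_Low_E2, and its log2 fold was -0.80 without VCD_Vehicle. Gm12840 lost its call in 3 of 13 alternatives, DESeq2 among them, and without VCD_High_PBDE (-0.67) or VCD_High_PBDE_E2_P4 (-1.16).

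**Figure D3:**
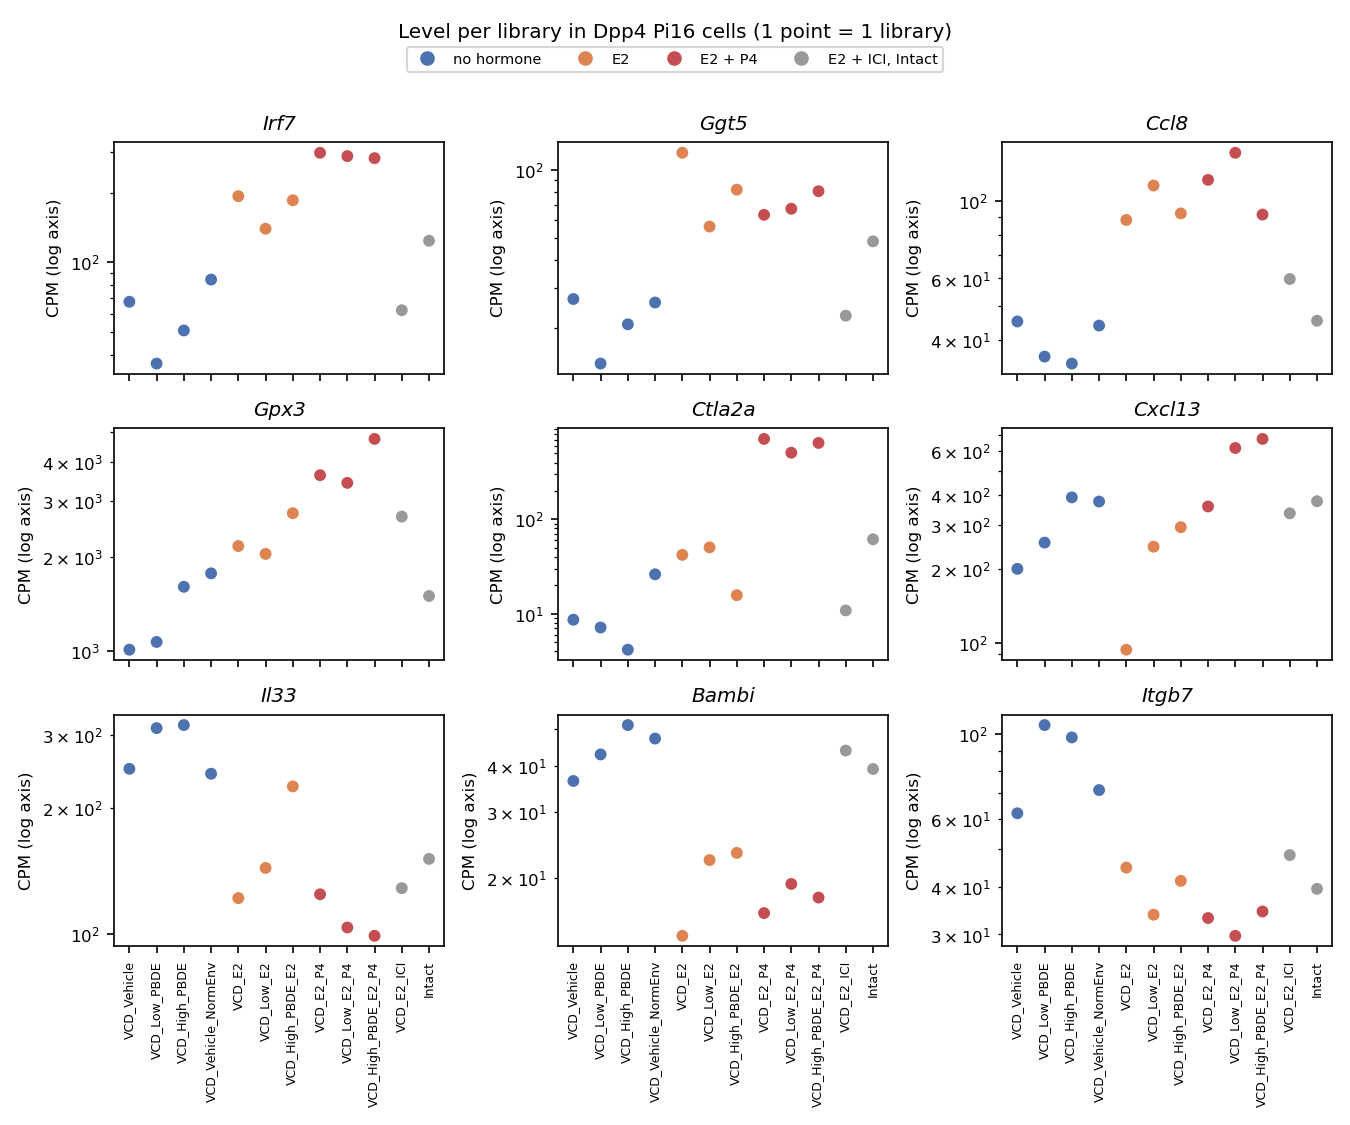
CPM of 9 named genes in the members of each library, with 1 point per library on a log axis (blue no hormone, orange E2, red E2 with P4, grey E2 with ICI and Intact). Irf7, Ggt5, Ccl8 and Gpx3 are higher in all 6 libraries with E2 than in the 3 libraries of the layout without, Il33, Bambi and Itgb7 lower, Ctla2a is highest with P4, and Cxcl13 is higher with P4 than with E2 alone.

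Many interferon-stimulated genes other than the 3 of the rule rose, although the rule had removed cells with much Ifit1, Ifit3 and Isg15 and removed more of them from the libraries with E2. Of 41 tested genes of the list, 26 were higher, 1, Ifi27, lower (-0.46) and 14 not called, with a median log2 fold of 0.63 against -0.002 over all genes. The members are cut off at the interferon limit, so these folds describe what remained below it. Beside Irf7, they included the antiviral Oas3, Oas1a, Oasl2, Rsad2, Bst2, Ddx58 and Zbp1, the factor Irf9, the guanylate-binding and immunity GTPases Gbp2, Gbp3, Gbp7, Iigp1 and Irgm1, the antigen presentation genes B2m, H2-K1, H2-D1, Tap1, Psmb8 and Psmb9, and Lgals3bp, Ifi27l2a, Xaf1, Rtp4 and Parp14. Lgals3bp and Ifi27l2a both rose by 1.22, Bst2, a membrane protein that tethers virions, by 1.21 and B2m by 0.49. Ifi27 and Ifi27l2a overlap in the annotation, and the Gbp, Oas and H2 genes belong to families whose copies can share reads, so single members are uncertain.

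In log2 ratio to the mean of the 3 libraries without hormone, the median of the 26 genes was 0.84, 0.59 and 0.55 with E2 and 0.99, 0.89 and 0.66 with E2 and P4. It was 0.29, -0.10 and -0.24 in the 3 libraries without hormone themselves, 0.04 in VCD_E2_ICI, 0.33 in VCD_Vehicle_NormEnv and 0.38 in Intact. Summed over the 26 genes, members held 4361 to 6530 CPM without hormone, 8237 to 8529 CPM with E2 and 9207 to 11099 CPM with E2 and P4, and 5360 CPM in VCD_E2_ICI, 6265 in VCD_Vehicle_NormEnv and 7396 in Intact. All 6 libraries with E2 and no antagonist were therefore the highest. These 26 genes were chosen by their E2 effect in the 9 libraries, so only the 3 libraries outside the layout are a comparison the choice did not use.

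**Figure D4:**
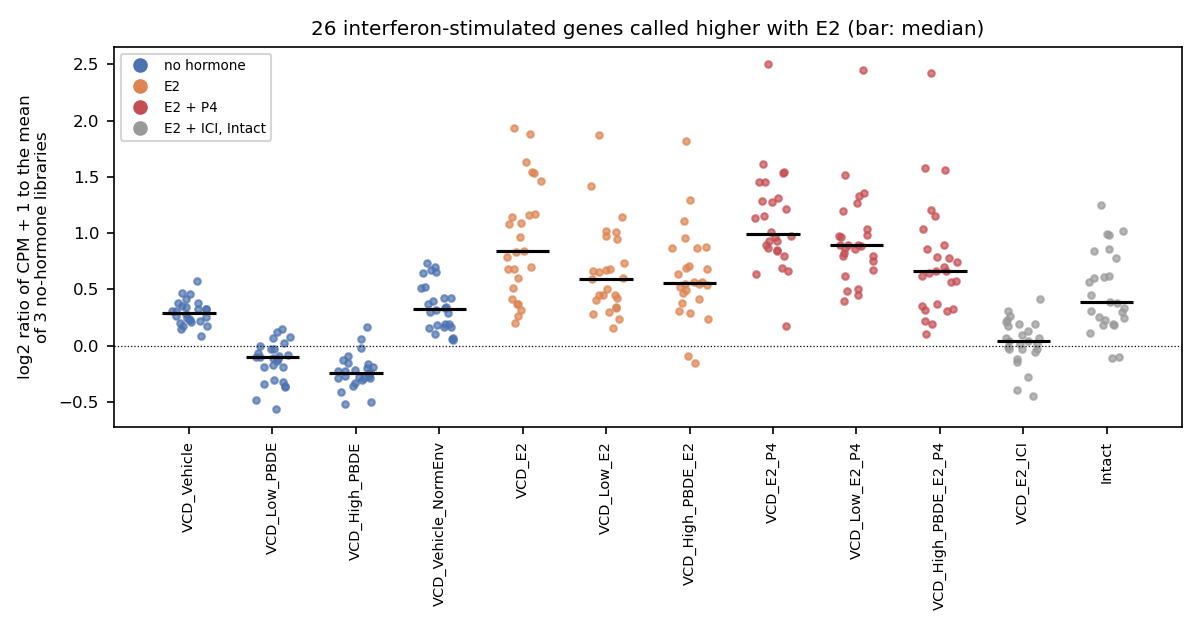
Log2 ratio of CPM + 1 to the mean of the 3 libraries without hormone for the 26 interferon-stimulated genes that rose with E2, by library (points are genes, the bar their median). The medians are 0.55 to 0.99 in the 6 libraries with E2 and 0.04 in VCD_E2_ICI.

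The promoters of 3 of these genes are printed because each holds the letters of an interferon-stimulated response element. The window runs from 250 bases before to 50 bases after the annotated start, 5′ to 3′ on the strand of the gene, from RefSeq on GRCm38.p6. Capitals mark each match of GAAANNGAAA on either strand. In Bst2 (chr8:71537423-71537722, minus strand), 2 overlapping matches begin 130 and 124 bases before the start. In Gbp3 (chr3:142559794-142560093, plus strand), 2 overlapping matches begin 45 and 39 bases before it. In Gbp2 (chr3:142620413-142620712, plus strand), 1 match begins 59 bases before it. A further annotated start of Gbp3 (chr3:142560106-142560405) has no match in its window.
Bst2: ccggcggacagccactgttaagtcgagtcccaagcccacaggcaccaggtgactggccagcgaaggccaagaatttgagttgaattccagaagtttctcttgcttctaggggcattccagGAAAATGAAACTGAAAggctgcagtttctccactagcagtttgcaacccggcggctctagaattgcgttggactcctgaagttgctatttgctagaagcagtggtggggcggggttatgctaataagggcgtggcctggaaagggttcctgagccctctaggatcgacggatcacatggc
Gbp3: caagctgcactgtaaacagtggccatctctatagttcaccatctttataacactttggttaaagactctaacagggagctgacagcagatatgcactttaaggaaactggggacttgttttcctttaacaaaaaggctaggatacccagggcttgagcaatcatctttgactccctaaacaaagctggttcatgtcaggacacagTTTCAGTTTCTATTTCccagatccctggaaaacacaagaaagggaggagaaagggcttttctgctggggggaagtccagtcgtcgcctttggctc
Gbp2: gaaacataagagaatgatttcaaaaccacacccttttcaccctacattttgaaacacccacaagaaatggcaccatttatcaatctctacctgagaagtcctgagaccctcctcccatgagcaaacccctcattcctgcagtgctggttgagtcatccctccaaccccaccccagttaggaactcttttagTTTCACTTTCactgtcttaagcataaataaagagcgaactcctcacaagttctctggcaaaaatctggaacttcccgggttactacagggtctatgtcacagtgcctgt

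Bst2 was at 346, 204 and 206 CPM without hormone, 533, 511 and 464 CPM with E2 and 731, 637 and 582 CPM with E2 and P4. Gbp3 was at 18.2, 12.3 and 11.6 CPM, 40.6, 19.2 and 23.4 CPM, and 28.6, 27.0 and 21.5 CPM in the same order. For Gbp2 the values were 54.6, 42.8 and 37.0 CPM, 64.4, 56.6 and 72.4 CPM, and 101, 89.5 and 69.2 CPM. The libraries with E2 were above those without for each of the 3 genes, with log2 folds of 1.21, 0.89 and 0.76. A match of GAAANNGAAA was present in 3.44% of all 32851 promoters and in 3.71% of 8175 tested genes with a promoter. Among called genes with a promoter it was present in 28 of 207 that were higher (13.5%) and 7 of 184 that were lower (3.80%), and in 10 of 20 interferon-stimulated genes that were higher (50%). A match is a description of letters in this window and not of a bound site.

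Several chemokine genes also rose. Of 23 tested chemokines and cytokines 5 rose and 1, Il33, fell, with a median log2 fold of 0.30. Ccl8, a monocyte chemokine, was at 45.2, 35.9 and 34.3 CPM without hormone, 88.2, 111 and 92.1 CPM with E2 and 115, 137 and 91.4 CPM with both hormones (1.47 ± 0.11, adjusted p = 4.11e-05), with no overlap. Ccl2 rose by 1.15 and Ccl7 by 1.04, Cxcl10 by 0.76 and the epithelial-type cytokine Tslp by 0.69. Unlike Ccl8, the chemokines Ccl2, Ccl7 and Cxcl10 overlapped between groups. Ccl2 was at 265, 621 and 193 CPM without hormone against 379 to 1348 CPM in the 6 libraries with E2, and Ccl7 at 279, 431 and 226 CPM against 409.7 to 914 CPM. Cxcl10 was at 78.9, 132 and 58.0 CPM without hormone against 56.0 to 216 CPM with E2.

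Of 14 tested basement membrane genes, 6 rose with E2, none fell and 8 were not called, with a median log2 fold of 0.43. The 6 were Nid2 (nidogen, 0.96), Col4a5 (0.82), Col18a1 (0.78), Agrn (agrin, 0.72), Col4a1 (0.68) and Col4a2 (0.60). For E2 alone none of the 6 was called, with adjusted p-values of 0.0549 for Col4a5 to 0.351 for Nid2. Col4a1 was at 243, 154 and 116 CPM without hormone and at 199.5 to 350 CPM with E2, against 1505 to 2648 CPM in Pi16-low cells, and its groups overlapped at VCD_Vehicle. Of 9 fibrillar and fibril-associated collagens 2 rose, Col5a2 (0.66) and Col6a3, and Col14a1 fell (-0.56). Among 17 elastic fibre genes Mfap4 (1.60), Fbln2 and Emilin1 rose and elastin (Eln, -0.99) fell. Collagen processing enzymes had 4 of 21 higher and none lower, and proteoglycans had 3 higher, among them lumican (Lum, 0.81) and biglycan (Bgn, 0.68), and 2 lower of 15. Proteases and inhibitors had 6 higher, led by Mmp19 (1.13), Mmp3 (1.11) and Timp1 (0.91), and 2 lower, Adamts1 and Timp3, of 23. Complement had C4b (0.86) and C2 higher and C3 lower (-0.40) of 15. For E2 alone, the rises still called were 1 of 2 fibrillar collagens, 0 of 3 elastic fibre genes and 1 of 4 processing enzymes. They were also 3 of 3 proteoglycans, 2 of 6 proteases and inhibitors and 0 of 2 complement genes. Of the falls, Col14a1, Eln and the 2 proteoglycans lost their calls, C3 kept its call, and 1 of the 2 proteases and inhibitors did.

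Of 26 tested TGF-β and BMP signalling genes, 1 rose, the BMP modulator Bmper (1.32), 6 fell and 19 were not called, with a median log2 fold of -0.10. The 6 were Bmp7, Tgfbi (-0.99), Dact2 (-0.94), Bmp4 (-0.79), the receptor Tgfbr1 (-0.70) and Bmp2 (-0.68). Tgfbi, a matrix protein induced by TGF-β, was at 85.0, 98.8 and 139 CPM without hormone, 33.6, 40 and 50 CPM with E2 and 53.7, 71.7 and 92.7 CPM with both. Growth factors had Figf (VEGF-D, 1.04), Igfbp7 (0.81) and Igf1 (0.54) higher and Hgf (-1.27), Pdgfc (-0.70), Vegfa (-0.60) and Igfbp5 (-0.58) lower of 27. Of 30 immediate early and heat shock genes none rose and 6 fell, led by Fosl2 (-0.76), Hspa1a (-0.57), Klf2 (-0.50) and Klf4 (-0.44). Wnt signalling had 2 higher, Dkk2 and Sfrp4, and 2 lower, Sfrp1 and Wnt11, of 21. For E2 alone, Bmper, Dkk2 and Sfrp4 were not called, while Sfrp1 and Wnt11 were. Of the growth factors, 1 of the 3 that rose and 1 of the 4 that fell were called for E2 alone.

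Of the 28 tested universal fibroblast markers, 6 fell with E2 (Il33, Bmp7, Dact2, Smpd3 at -0.81, Limch1 at -0.68 and Gfpt2 at -0.60) and 2 rose (Ly6a at 0.54 and Ly6c1 at 0.43). The median of this list was -0.13. Smpd3, the gene outside the rule with the highest ratio of members to Pi16-low cells, was at 672, 730.1 and 1081 CPM without hormone and at 378 to 514 CPM in the 6 libraries with E2, with no overlap. Of 12 tested adipogenic markers 3 rose, Col4a1, Col4a2 and Lpl (0.53), and Penk fell. Adipogenic regulators had 2 of 12 higher, Plin2 and Lpl. For E2 alone none of these adipogenic genes was called, against 1 of the 2 universal markers that rose and 4 of the 6 that fell.

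Classical estrogen receptor targets outside the rule had 1 of 18 tested genes higher, Igf1, and 1 lower, Stc2 (-1.04). For E2 alone neither was called (adjusted p = 0.306 and 0.302, edgeR), and Stc2 was at 2.68 to 10.2 CPM in members. The rule had removed cells with both Pgr and Greb1, so these counts describe the cells that remained. In the order no, low and high PBDE it removed 7.88%, 1.70% and 2.25% without hormone and 6.17%, 18.3% and 9.78% with E2. With E2 and P4 it removed 3.13%, 1.63% and 5.82%. No gene was called among 39 nuclear respiratory chain genes, 20 of cholesterol synthesis, 9 of the cell cycle, 7 of thyroid hormone signalling or 4 steroid receptors. Retinoid handling had 1 higher and 2 lower of 10. Xenobiotic and oxidative stress genes had Gpx3 and Aldh1a1 higher and Gclc and Txnrd1 lower of 24. Progesterone and glucocorticoid targets had Sgk1 higher and Per1 lower of 12. For E2 alone, Sgk1 was called and Per1 was not, and no retinoid handling gene was. Of the oxidative stress genes, 1 of the 2 higher and 0 of the 2 lower were called for E2 alone. A list with no called gene was not shown to be equal between groups.

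Markers of other cells were at low summed levels, apart from Ctla2a and the globin genes. Of 12 immune cell markers 11 had a UMI, and their summed level was 29.7 to 35.6 CPM without hormone, 24.7 to 47.3 with E2 and 40.6 to 231 with E2 and P4, the highest in VCD_Low_E2_P4. Of the 8 tested none was called for E2, with a median log2 fold of 0.89. The 8 endothelial markers, of which Pecam1 was at 0 by the rule, summed to 27.4 to 43.1 CPM without hormone, 44.7 to 62.9 with E2 and 523 to 722 with both hormones, most of it Ctla2a, which stands in that list. Epithelial markers summed to 0.276 to 5.72 CPM, adipocyte markers to 0 to 2.51, pericyte markers to 1.40 to 14, Schwann cell markers to 45.2 to 62.1, mesothelial markers to 39.4 to 130 and keratinocyte-related genes to 90.7 to 143 CPM over the 9 libraries. Globin genes summed to 10.7 to 21.8 CPM without hormone, 47.6 to 3016 with E2 and 34.2 to 338 with both. The part of these RNAs in the results was not tested. In VCD_E2 the sums rest on 38 members and 714264 UMIs, fewer than in any other library.

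The E2 effect can be read within libraries that share a file name suffix, although a shared suffix does not show that libraries were prepared together. Without PBDEs the 3 libraries shared 115 to 138 barcodes in pairs. At the high dose VCD_High_PBDE shared 4 with VCD_High_PBDE_E2 and 2 with VCD_High_PBDE_E2_P4, against 35 with VCD_Vehicle_NormEnv and 27 with VCD_E2_ICI. The source of the shared barcodes was not tested. Without PBDEs all 3 libraries of the layout carry the first suffix and with the high dose all carry the second. In this order the log2 fold of E2 was 1.86 and 2.13 for Irf7, 1.71 and 1.90 for Ggt5, 1.52 and 1.16 for Gpx3, -1.18 and -1.31 for Bambi and -0.96 and -1.10 for Il33. These genes were named partly for having the same sign at all 3 PBDE levels, so their sizes and not their signs are of use here. All 5 kept their call with the suffix as a further term. Mrgprg and the globin genes Hba-a1, Hba-a2, Hbb-bs and Hbb-bt lost theirs, with -1.86 and -2.99 for Mrgprg and 3.78 and 2.48 for Hbb-bs in the same order. With that term 157 genes were called, 147 of them among the 516.

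The E2 effect in members was compared with that in Pi16-low fibroblasts of the same libraries by the interaction of population and E2, with each library as a block. It was called for 1155 of 12846 genes (8.99%), more positive in members for 597 (4.65%) and more negative for 558 (4.34%). Members were cut off at the interferon limit and Pi16-low cells were not. Without that limit 1251 genes were called. Most genes named here were chosen for a large effect in members, which favours a difference in the same direction. Ggt5 rose by 1.92 in members and was at 0.16 in Pi16-low cells (difference 1.75 ± 0.17, adjusted p = 5.23e-05). The Pi16-low cells already had more of it, with 154 to 202 CPM without hormone and 171 to 256 CPM with E2. Gpx3 differed by 1.54 ± 0.16 (adjusted p = 8.72e-05), with a log2 fold of -0.20 in Pi16-low cells. Irf7 rose in both populations, by 2.14 in members and 0.83 in Pi16-low cells (difference 1.30 ± 0.13, adjusted p = 7.06e-05).

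Bmp7 moved in opposite directions, falling by 1.04 in members and rising by 1.93 in Pi16-low cells (difference -2.99 ± 0.32, adjusted p = 0.000105). In Pi16-low cells it was at 0.611 to 1.01 CPM without hormone and 1.72 to 6.25 CPM with E2, far under the level in members. For Il33 the log2 fold was -1.13 in members and 0.64 in Pi16-low cells, the latter not past the threshold (adjusted p = 0.112), and the difference was -1.80 ± 0.29 (adjusted p = 0.00177). Hgf, hepatocyte growth factor, differed by -2.05 ± 0.18 (adjusted p = 2.72e-05), with -1.27 in members and 0.60 in Pi16-low cells (adjusted p = 0.0801). Over the 12 libraries Hgf was at 1.40 to 28.0 CPM in members, with a median of 7.38, so its lowest values rest on few UMIs. Fosl2 differed by -0.95, with -0.76 in members and 0.18 in Pi16-low cells. Among interferon-stimulated genes the rise was larger in members for Lgals3bp (0.68 in Pi16-low cells, difference 0.54, adjusted p = 0.00389) and Bst2 (0.50 in Pi16-low cells, difference 0.71, adjusted p = 0.00128). B2m rose by 0.49 in members and was at -0.12 in Pi16-low cells (adjusted p = 0.331), a difference of 0.61 (adjusted p = 0.00192). For Ifi27l2a the difference was 0.22 (adjusted p = 0.478) and for Tslp -0.04 (adjusted p = 0.934), with standard errors of 0.17 and 0.16. Tgfbi and Bmp4 fell in both populations and fell further in Pi16-low cells, by 1.91 and 1.77 (adjusted p of the difference 0.00121 and 0.00809). Of the named E2 genes, Bambi (difference -0.60, adjusted p = 0.0503), Slc2a1, Gm12840 and Mrgprg did not pass the threshold.

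**Figure D5:**
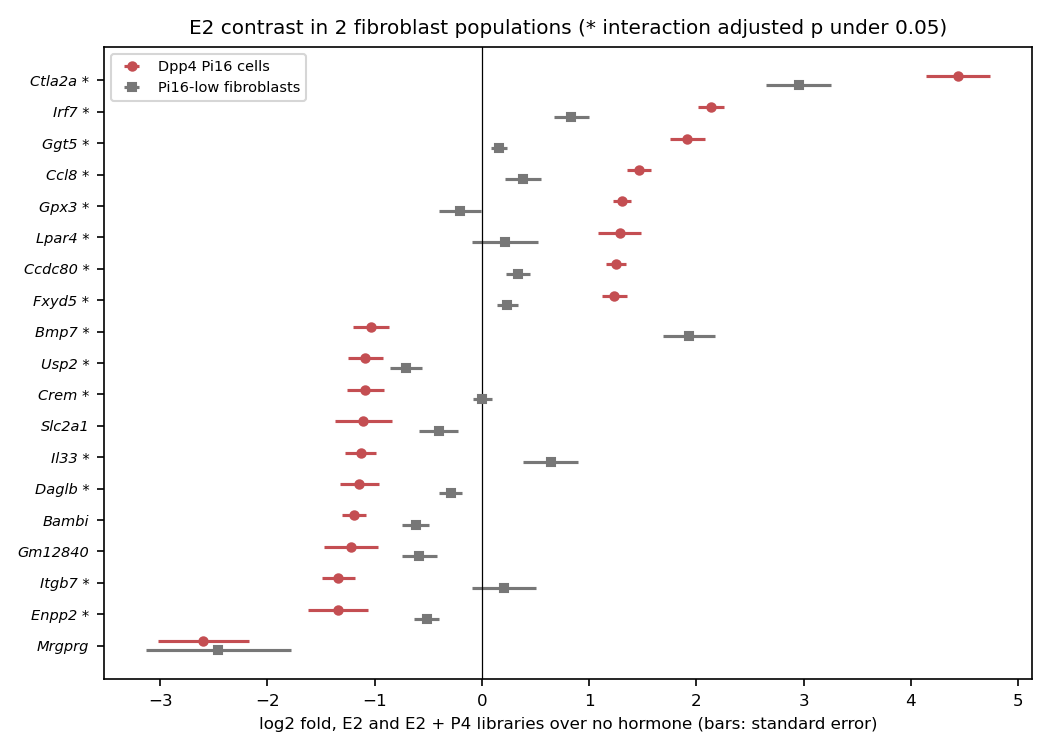
Log2 fold of E2 in members (red circles) and in Pi16-low fibroblasts (grey squares) for named E2 genes outside haemoglobin, with SE bars, an asterisk marking an interaction past an adjusted p of 0.05. Ggt5 and Gpx3 lie high in members at 1.92 and 1.31 and near 0 in Pi16-low cells, and Bmp7 lies below 0 in members and above 0 in Pi16-low cells.

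Progesterone was given only with E2, so its effect is that of E2 with P4 against E2 (3 against 3 libraries in the same fit). It was called for 14 genes, all higher (0.131% of 10657), while 730 genes had an unadjusted p below 0.05. These comparisons share the E2 libraries with the E2 effect. Ctla2a rose by a further 4.28 ± 0.29 (adjusted p = 4.92e-05). At 5000 UMIs it was found in 25.3%, 24.7% and 19.3% of members with P4, in 13.2%, 8.16% and 3.49% with E2 alone and in at most 3.19% without hormone, so most members carried none at this depth. Cxcl13, a chemokine for B cells, was at 93.8, 246 and 295 CPM with E2 and 358, 618 and 673 CPM with P4 added, above each E2 library (1.47 ± 0.15, adjusted p = 0.00222). Without hormone it was at 199.8, 255 and 389.8 CPM. F3, which encodes tissue factor, was at 5.60, 3.64 and 4.34 CPM with E2 and 21.2, 19.5 and 16.7 CPM with P4 added (2.13 ± 0.23, adjusted p = 0.00333), against 14.9, 10.9 and 9.67 CPM without hormone. For F3 the libraries with P4 were above and those with E2 below all 3 without hormone, while Cxcl13 overlapped with them.

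The other genes that rose with P4 included Tnfsf9 (1.03), the lipocalin Apod (0.99), Igfbp7 (0.94), Tgfbi (0.89), fibulin 1 (Fbln1, 0.83), Gpx3 (0.82), Irf7 (0.82), Igfbp4 (0.79), the complement regulator Serping1 (0.66) and C1qb. C1qb, a complement gene of macrophages, was at 0, 1.56 and 0.33 CPM with E2 and 2.09, 13.4 and 10.9 CPM with P4. The summed immune markers of the same libraries were 35.0, 47.3 and 24.7 CPM with E2 and 40.6, 231 and 105 CPM with P4, and their part in the result was not tested. Of the 14 calls, those of Ctla2a and Cxcl13 held with any 1 library left out. In all Pi16 Dpp4 positive fibroblasts both lost their call (adjusted p = 0.0804 for Ctla2a, edgeR), and Cxcl13 also lost it with VCD_Vehicle_NormEnv added. Each of the other genes named here lost its call without at least 1 library, F3 without VCD_Low_E2 (adjusted p = 0.0776) and C1qb without VCD_Low_E2 (0.131) or VCD_High_PBDE_E2 (0.187), and C1qb could be fitted in 7 of 9 omissions.

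For the low PBDE dose against none (3 against 3 libraries), no gene was called by edgeR (0% of 10657). The smallest adjusted p was 0.138, 444 genes (4.17%) had an unadjusted p below 0.05, and DESeq2 called 2. The high dose was called for 28 genes (0.263%), 10 higher (0.0938%) and 18 lower (0.169%). Without VCD_High_PBDE_E2_P4 2 genes were called, of which 1 was among the 28. Ackr3 and Serping1, named below, each lost their call in 5 of 9 omissions. In the layout all libraries with the high dose carry one file name suffix and all without PBDEs the other. Within it, dose and suffix cannot be told apart except through the low dose libraries, which carry both. Outside it, VCD_E2_ICI and VCD_Vehicle_NormEnv had no PBDE diet and carry the suffix of the high dose. With the suffix as a term 9 genes were called, of which 1 was among the 28.

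The genes lowest with the high dose were transcripts that overlap ribosomal RNA sequence and Lars2, a mitochondrial tRNA synthetase. Gm42418 was at 2398, 1393 and 3459 CPM without PBDEs (no hormone, E2, E2 with P4), 3569, 1866 and 1834 CPM at the low and 403, 501.1 and 412 CPM at the high dose (-2.44 ± 0.30, adjusted p = 0.00825). AY036118 fell by 3.36 and Lars2 by 1.53. Among the other libraries with the second suffix, VCD_E2_ICI, without PBDEs, had 738 CPM of Gm42418, 28.7 of AY036118 and 51.0 of Lars2. AY036118 was at 210.5 CPM in VCD_Low_E2, 80.9 in VCD_Low_E2_P4 and 65.1 in VCD_Vehicle_NormEnv, against 105 CPM in VCD_Low_PBDE with the first suffix. Timp1 (-1.0), Cd44 (-1.03), Col4a2 (-0.76), Col4a1 (-0.70) and the interferon-stimulated Iigp1 (-1.13) were also lower. With 1 library left out, Timp1 lost its call in 5 of 9 omissions, Cd44 in 4, Col4a2 in 2 and Iigp1 in 1. With the suffix as a term, AY036118 alone of the 28 genes was still called, and the part of the suffix in these results was not tested further. Dact2, a modulator of Wnt and TGF-β signalling, was at 13.4, 5.60 and 6.56 CPM without PBDEs, 15.1, 6.76 and 5.45 CPM at the low dose and 39.0, 30.7 and 18.4 CPM at the high dose (1.66 ± 0.21, adjusted p = 0.00825). VCD_E2_ICI and VCD_Vehicle_NormEnv, both with the second suffix, had 22.3 and 19 CPM of it. Cxcl13 (1.07), Ackr3, a scavenging receptor for CXCL12 (0.81), selenoprotein P (Sepp1, 0.75), Tgfbi (0.69) and Serping1 (0.53) were also higher. Tgfbi lost its call in 4 of 9 omissions, and its log2 fold ran from 0.22 to 0.79 over all settings. Cxcl13 and Sepp1 each lost theirs in 1 omission. Ackr3 was at 1632, 1979 and 1846 CPM at the high dose and 875 to 1315 CPM in the other 6 libraries of the layout.

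The 3 libraries outside the layout have 1 library each and no test. Each was set against the mean of the libraries without hormone and the mean of those with E2 for the 516 E2 genes, on the log2(CPM + 1) scale. VCD_Vehicle_NormEnv, which had no hormone, was nearer to no hormone for 352 genes (68.2%), VCD_E2_ICI for 273 (52.9%) and Intact for 244 (47.3%). Of the 26 interferon-stimulated genes, VCD_E2_ICI was nearer to no hormone for all 26, VCD_Vehicle_NormEnv for 18 and Intact for 11. Of the 24 named E2 genes the counts were 9, 17 and 8. VCD_E2_ICI was nearer to the libraries without hormone for Irf7 (62.1 CPM), Ggt5 (22.6 CPM), Ccl8 (59.8 CPM), Ctla2a (10.8 CPM) and Bambi (43.9 CPM). Its Ccl8 and Ctla2a lay above each library of the layout without hormone. VCD_E2_ICI was nearer to the libraries with E2 for most named genes, among them Gpx3 (2683 CPM), Il33 (129 CPM) and Itgb7 (48.3 CPM). The named genes include the 4 globin genes, which summed to 792 CPM in VCD_E2_ICI and 773 CPM in VCD_Vehicle_NormEnv. VCD_E2_ICI carries the second suffix, as do all libraries with E2 at the low and high dose. Of the layout libraries without hormone only VCD_High_PBDE does. The part of the suffix in these distances was not tested. The Intact members held 124 CPM of Irf7, 48.3 of Ggt5, 151 of Il33 and 27.2 of Bmp7, between or near both means, and 39.2 CPM of Bambi, among the libraries without hormone.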

How the data were processed

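Mammary gland cells of 12 groups were profiled with the Chromium 3′ v3 kit, 1 library per group. The authors deposited raw, unnormalized UMI counts per gene and barcode. Per the labels, Cell Ranger 3.1.0 and the mm10 build were used. The 12 matrices list the same 27998 genes and hold no columns of other series. No doublet caller was run. Instead, an alternative left out members above the 95th percentile of UMIs of their library's fibroblasts or with a UMI of Krt14, Cd52 or Cspg4. The cell filters on genes, UMIs and mitochondrial share are those of the study, while its integration and clusters were not used here.

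Members were found by the UMI limits given above, and the members and gene lists were chosen with earlier results of these data known. Groups were taken from the sample labels. Counts were summed per library over members and over Pi16-low fibroblasts, since cells are not replicates. The sums of the 9 libraries of the layout were tested with edgeR 4.0.16 (R 4.3.3), using TMM scaling, filterByExpr, hormone and PBDE level as additive terms, and the quasi-likelihood test with Benjamini-Hochberg adjustment over all tested genes. The interaction fit held both populations of each library with the library as a block. Genes of the rule were left out of counts of calls. Adjusted p-values without a named tool are from edgeR. Where labels do not say that libraries came from separate animals, p-values measure only the spread between libraries around the additive fit, which may be technical or an interaction of hormone and PBDE level. Log2 ratios outside the fits used log2(CPM + 1). Summed depth was 714264 to 8421030 UMIs of members per library.

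Named genes were, per contrast with calls, the 12 largest rises and 12 largest falls among called genes that averaged 20 CPM or more and had the same sign at each level of the other factor, and the called genes of the lists. For members against Pi16-low cells they were the 25 highest and 10 lowest ratios among genes of at least 50 CPM, and for variation the 20 highest. Promoters and gene positions are those of RefSeq on GRCm38.p6, the assembly of mm10. Alternatives were DESeq2 1.42.0, RLE scaling, no count filter, each library left out, VCD_Vehicle_NormEnv added, the file name suffix as a term, other limits for members and a 10% mitochondrial limit. After the data were seen, all Pi16 Dpp4 positive fibroblasts and E2 alone against no hormone were added. Some genes that met these rules are counted but not reported here by name. The scripts were tested on simulated counts.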

Additional observations from a re-analysis of the deposited data

Results flagged for a closer look

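For 15 named E2 genes, the effect of E2 in members differed from that in Pi16-low fibroblasts of the same libraries, by the interaction term in edgeR's quasi-likelihood test with Benjamini-Hochberg adjustment. The difference is the log2 fold in members less that in Pi16-low cells. Over all 12846 genes it was called for 8.99%, but the named genes were chosen for a large effect in members, which favours a difference in the same direction, so their number is not set against that share. Among the named E2 genes whose difference was called, 5 lost that call without VCD_Low_PBDE, 4 without VCD_Low_E2 and 2 with DESeq2, and 3 or fewer in each other setting. Named genes without a called difference had none to lose.

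It was positive for 8 genes. It was 1.75 for Ggt5, 1.54 for Gpx3, 1.53 for Ctla2a, 1.30 for Irf7, 1.06 for Ccl8, 1.02 for Lpar4, 0.99 for Fxyd5 and 0.91 for Ccdc80. All 8 rose in members, and of these Ctla2a (2.95) and Irf7 (0.83) also rose in Pi16-low cells. Adjusted p-values ran from 5.23e-05 for Ggt5 to 0.0459 for Ctla2a, whose level in Pi16-low cells was 1.54 to 2.23 CPM without hormone.

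It was negative for the other 7, at -0.43 for Usp2, -0.84 for Daglb, -0.84 for Enpp2, -1.07 for Crem, -1.69 for Itgb7, -1.80 for Il33 and -2.99 for Bmp7. Of these, Usp2 (-0.71) and Enpp2 (-0.51) also fell in Pi16-low cells, and Bmp7 rose there (1.93). Itgb7 was at 0.666 to 1.70 CPM without hormone in Pi16-low cells, so its fold there rests on few UMIs.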

How the results depend on the processing

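With 1 library per group and 4 residual degrees of freedom, the number of calls depended on the settings more than the direction did. For E2, the 516 calls became 326 with DESeq2 (319 of them among the 516), 1035 with no count filter, 157 with the file name suffix as a term, 922 without the interferon limit, 273 with at least 40 UMIs of Pi16, 1465 in all Pi16 Dpp4 positive fibroblasts and 144 for E2 alone. Leaving out 1 library gave 154 to 468 calls, with 154 without VCD_Low_PBDE, 236 without VCD_High_PBDE, 284 without VCD_Low_E2, 333 without VCD_High_PBDE_E2_P4 and 339 without VCD_Low_E2_P4. For P4, the 14 calls became 32 with DESeq2, 193 with no count filter, 8 with VCD_Vehicle_NormEnv added, 32 without the interferon limit, 22 with at least 10 UMIs of Pi16, 3 in all positive fibroblasts, and 3 to 33 with 1 library left out (3 without VCD_Low_E2, 4 without VCD_High_PBDE_E2_P4, 5 without VCD_High_PBDE_E2, 22 without VCD_Vehicle, 26 without VCD_High_PBDE, 33 without VCD_E2_P4). For the low dose, 0 calls became 2 with DESeq2, 111 with no count filter, 1 with VCD_Vehicle_NormEnv added, 2 with the suffix term, 1 without the interferon limit, and 0 to 1 with 1 library left out. For the high dose, 28 became 86 with DESeq2, 503 with no count filter, 9 with the suffix term, 79 without the interferon limit, 15 with at least 40 UMIs of Pi16, 11 with limits per 10000 UMIs, 7 in all positive fibroblasts, and 2 to 96 with 1 library left out (2 without VCD_High_PBDE_E2_P4, 10 without VCD_Low_E2, 15 without VCD_E2_P4, 48 without VCD_Low_E2_P4, 50 without VCD_Low_PBDE, 67 without VCD_Vehicle, 96 without VCD_High_PBDE). For the interaction, 1155 became 484 with DESeq2 and 569 to 1185 with 1 library left out (569 without VCD_High_PBDE, 600 without VCD_Low_PBDE, 726 without VCD_Low_E2, 767 without VCD_E2_P4). The causes were not tested.

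Of the 24 named E2 genes, 14 kept their call in all 13 alternatives and 9 omissions, among them Bambi, Ccdc80, Ccl8, Crem, Ctla2a, Fxyd5, Ggt5, Gpx3, Il33, Irf7, Itgb7, Lpar4 and Usp2. None of 12 named P4 genes and 1 of 21 named high dose genes, AY036118, did. No named fold changed sign. The difference of E2 effects for Mrgprg, -0.30 and not called, ran from -0.86 without VCD_Low_E2 to 0.020 without VCD_Vehicle, where it changed sign. No paired analysis was possible because the labels give no replicate numbers that would pair libraries of different groups. VCD_E2, with 38 members, sets the lowest depth.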
